A study of Rattus norvegicus with 35 samples.

Results

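Rat mammary tumours with the highest expression of 4 cell division genes were compared with those of the lowest. The tumours were chosen by a score read from the same arrays: the signals of Cdk1, Ube2c, Mki67 and Stmn1 were floored at 41.6, taken to log2 and averaged, and the 24 tumours of the series were ranked by that mean. The 8 tumours of highest score were set against the 8 of lowest score, 16 of 24 tumours and of 35 samples in all, across the 10407 other genes measured. The score is made of mRNA levels. No rate of division was measured, so the groups are called highest-score and lowest-score tumours here.

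The series holds 24 mammary tumours and 11 normal mammary glands of the rat, each on its own RAE230A oligonucleotide array. Highest-score and lowest-score tumours carry the same labels: frozen tumours induced with the alkylating carcinogen N-methyl-N-nitrosurea (NMU), with no other treatment named. The normal glands carry no treatment in their labels. No strain, age, animal, batch or date is named, and no label ties a sample to an animal of its own, so every p-value below rests on array-to-array spread that can hold a technical share. The highest-score tumours, from high to low, are titled X26, X22L, X27, X20, X10, X19, X32 and X2. The lowest-score tumours are titled X25R, X29.2, X21, X13, X8, X28, X14 and X4. The titles X25L and X25R share a number, as do X29.1 and X29.2, and in both cases the partner of a lowest-score tumour was among the 8 intermediate tumours. The normal glands X27.1N and X28.1N share a number with the highest-score tumour X27 and the lowest-score tumour X28.

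A cell that divides copies its DNA in S phase and separates the copies in mitosis. Genes for the proteins of mitosis are transcribed mostly in G2 phase, and those for DNA replication around the entry into S phase, so the RNA of a tissue with more cycling cells holds more of both. In the rat mammary gland, NMU gives rise to tumours of epithelial origin, many of which depend on ovarian hormones and prolactin and keep part of the secretory programme of the gland.

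Cdk1, the kinase that drives entry into mitosis, was measured at signals of 453 to 902 in highest-score tumours (median 533) and 110 to 321 in lowest-score tumours (median 261). Ube2c, which passes ubiquitin to mitotic cyclins for their destruction, lay at 442 to 881 (median 555) in highest-score tumours and at 85.9 to 353 (median 264) in lowest-score tumours. Mki67, which encodes the Ki-67 antigen used by pathologists to count cycling cells, lay at 195 to 413 (median 244) in highest-score tumours and at 69.0 to 162 (median 112) in lowest-score tumours. For these 3 genes no highest-score tumour was as low as any lowest-score tumour. Stmn1, a protein that destabilizes microtubules, overlapped between the groups, at 982 to 1759 (median 1284) in highest-score tumours and 446 to 1199 (median 833) in lowest-score tumours. These levels chose the groups and are a description with no test.

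Neither limit of the groups fell at a wide step in the score. The last highest-score tumour, X2, had a score of 8.89 and the next tumour, X9, 8.80. At the other limit, X25R had 8.46 among the lowest-score tumours and X15 had 8.48 just outside them. The spread within the lowest-score tumours was wider, 7.03 to 8.46, than within the highest-score tumours, 8.89 to 9.65, and X4 had the lowest score of all tumours. Over the 24 tumours the 4 genes correlated with each other at Pearson r of 0.71 to 0.96, with Cdk1 and Ube2c the closest pair. A score without Ube2c or without Stmn1 gave the same 8 tumours on each side. A score without Cdk1 or without Mki67 replaced 1 tumour on each side, and no tumour crossed between the groups.

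**Figure D1:**
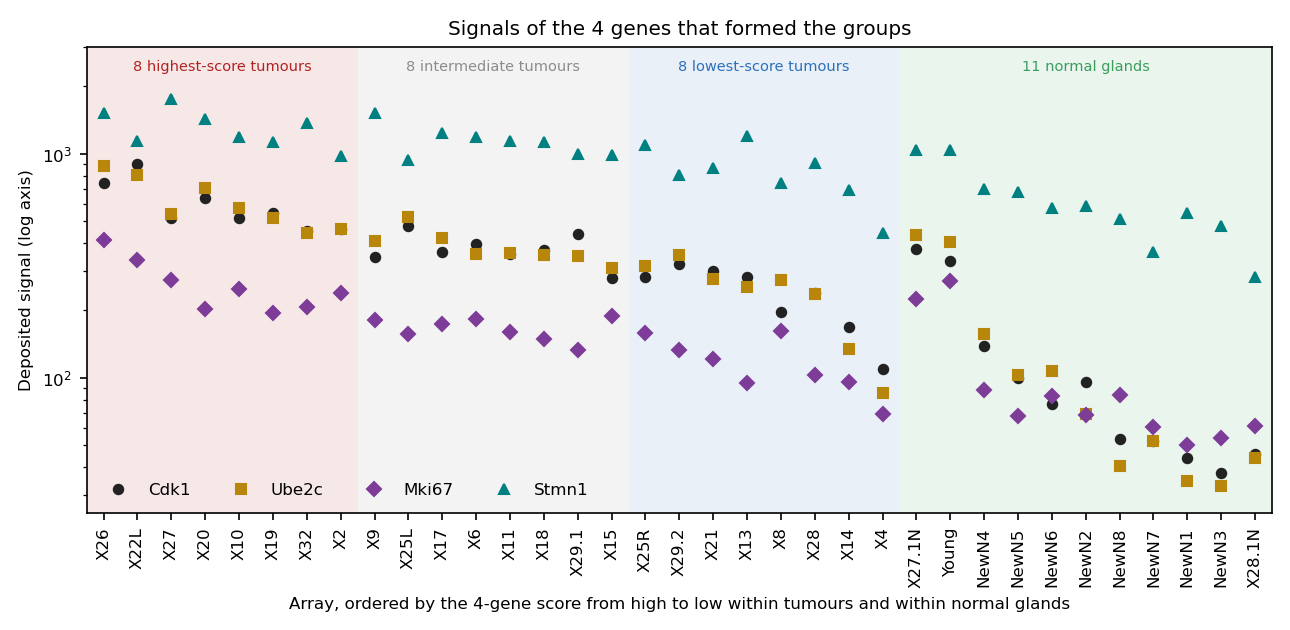
Deposited signal (log axis) of Cdk1, Ube2c, Mki67 and Stmn1 on each of the 35 arrays, ordered by the 4-gene score within tumours and within normal glands, with the score groups shaded. Cdk1, Ube2c and Mki67 do not overlap between the 8 highest-score and the 8 lowest-score tumours, while Stmn1 does.

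In highest-score tumours 62 genes were higher and 71 lower than in lowest-score tumours at a Benjamini-Hochberg adjusted p under 0.05 in limma, which is 0.596% and 0.682% of the 10407 genes tested, 1.28% in all. Log2 changes are highest-score minus lowest-score tumours, each with its standard error (SE). Of the 62, 20 were at least 2-fold higher, and of the 71, 29 were at least 2-fold lower. The median change over all genes was 0. The shares of 0.596% and 0.682% are the background for the calls of each gene list below. An unadjusted p under 0.05 was reached by 1233 of the 10407 genes, the background for list counts at that limit. The signals of highest-score tumours all lay above those of lowest-score tumours for 22 genes (0.211%), every one of them called, and all below for 6 genes (0.0577%). Since the score and every other gene come from the same arrays, the p-values measure association with the score in these tumours.

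Each count rests on particular tumours. Without X2 the counts were 130 higher and 117 lower. Without X8 they were 34 and 23, and without X26 they were 39 and 36. The count of lower genes was also reduced by over 1.5 times without X13 (39), X20 (27), X22L (45), X25R (28), X27 (35) or X29.2 (36). In all of these the 62 genes kept a positive and the 71 a negative change. With the 12 highest set against the 12 lowest tumours, 3 genes were higher and 0 lower.

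None of 8 measures of array quality passed a test between the groups, which does not show that they were alike. They were 3 signal percentiles, the log2 median, the 3' to 5' ratios of the Actb and Gapdh controls, the share of values at the floor and the correlation with other tumours. The lowest p was 0.0886, for the median correlation with other tumours, 0.92 ± 0.0374 in highest-score and 0.94 ± 0.0114 in lowest-score tumours (SD, n = 8 each; two-sided exact permutation test; 0.709 adjusted over the 8). With the Actb ratio as a covariate 47 genes were higher and 32 lower. X22L, the second by score, stood apart. It averaged 6.73 on the log2 scale over 23 luminal epithelial genes, against 9.26 to 10.1 in the other 7 highest-score tumours and 9.41 to 9.87 in lowest-score tumours. In X22L the luminal keratin Krt8 had a signal of 75.7 and Krt18 lay below the floor. Without X22L, 41 of the 62 higher and 41 of the 71 lower genes were called, and the adjusted p without X22L is given beside each named gene that lost its call.

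Genes of mitosis and the kinetochore formed the largest group of higher genes. Of 43 measured members of that list, 22 rose and 0 fell, and the median change was 0.51. The change was above 0 for 43 of 43. The 22 are 51.2% of the list, beside 0.596% of all genes tested, but this list holds the same class of gene as the score, so its count describes how widely the class moved with the score and does not support the ranking. Without X22L, 19 of 43 rose with a median of 0.49.

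Subunits of the kinetochore and kinases of the spindle were among the 22. Spc24, a subunit of the Ndc80 complex that ties kinetochores to microtubules, lay at 207 to 347 (median 244) in highest-score tumours and at 101 to 136 (median 128) in lowest-score tumours, with no overlap. Its change of 1.04 ± 0.10 had the lowest adjusted p of all genes, 2.14e-06. Its partner Spc25 was at 111 to 300 (median 132) in highest-score tumours and 46.5 to 89.2 (median 75.1) in lowest-score tumours (1.10 ± 0.17; adjusted p = 0.000804). The highest Spc25 signal, 300, was that of X22L. Aurkb, the kinase of the chromosomal passenger complex, was at 190 to 486 (median 308) in highest-score and 108 to 200 (median 161) in lowest-score tumours, where 1 highest-score tumour, X10, fell within the lower range (1.09 ± 0.16; adjusted p = 0.000555). Bub1b, a spindle checkpoint kinase, overlapped more, at 53.3 to 208 (median 126) in highest-score and 26.6 to 91.3 (median 64.4) in lowest-score tumours (0.99 ± 0.22; adjusted p = 0.0269, or 0.0524 without X22L).

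Cyclins and regulators of Cdk1 rose together. Cks2, a small protein bound to cyclin-dependent kinases, was the largest riser of the list, at 320 to 705 (median 392) in highest-score and 88.6 to 206 (median 182) in lowest-score tumours. No tumours overlapped, and the change was 1.45 ± 0.18 (adjusted p = 6.46e-05). Ccnb2, cyclin B2, was at 350 to 598 (median 476) in highest-score and 113 to 340 (median 215) in lowest-score tumours (1.20 ± 0.19; adjusted p = 0.000917). Ccnb1, cyclin B1 and the partner of Cdk1 in mitosis, changed less, at 260 to 419 (median 335) in highest-score and 156 to 219 (median 196) in lowest-score tumours (0.79 ± 0.13; adjusted p = 0.00174). Cdkn3, a phosphatase that removes the activating phosphate of cyclin-dependent kinases, had its highest value, 656, in X22L, and 169 to 281 in the other highest-score tumours, against 60.1 to 182 in lowest-score tumours (1.33 ± 0.23; adjusted p = 0.00248). Cdc25b, the phosphatase that activates Cdk1, was dim, at 44.0 to 143 (median 83.4) in highest-score and 40.4 to 59.3 (median 48.4) in lowest-score tumours (0.73 ± 0.16; adjusted p = 0.0222). Foxm1, the transcription factor of G2 and mitosis genes, was dim in both groups, at 58.6 to 90.8 (median 72.8) in highest-score and 39.0 to 64.7 (median 49.7) in lowest-score tumours (0.51 ± 0.11; adjusted p = 0.024).

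Other members with large rises act in cytokinesis or on chromosomes. Racgap1, a subunit of centralspindlin, which organizes the midzone of the spindle, was at 175 to 285 (median 217) in highest-score and 46.1 to 124 (median 101) in lowest-score tumours (1.27 ± 0.17; adjusted p = 0.00017). Kif20a, a kinesin of cytokinesis, overlapped only through X2 at 167 among highest-score tumours, at 167 to 452 (median 218) in highest-score and 57.3 to 186 (median 102) in lowest-score tumours (1.23 ± 0.22; adjusted p = 0.00308). Top2a, the topoisomerase that untangles sister chromatids, was at 320 to 640 (median 422) in highest-score and 122 to 261 (median 195) in lowest-score tumours (1.13 ± 0.14; adjusted p = 7.17e-05). Melk, a mitotic kinase, was at 96.5 to 173 (median 137) in highest-score tumours, all above the 34.8 to 90.3 (median 61.3) of lowest-score tumours (1.20 ± 0.14; adjusted p = 6.46e-05).

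Other mitosis genes did not pass. Birc5, or survivin, changed by 0.43 ± 0.12 (adjusted p = 0.0738), with 277 to 439 (median 313) in highest-score and 184 to 302 (median 246) in lowest-score tumours. Aurka, the centrosomal Aurora kinase, changed by 0.43 ± 0.14 (adjusted p = 0.153). Cdc20, the activator of the anaphase-promoting complex, changed by 0.24 ± 0.11 (adjusted p = 0.423), with 287 to 461 (median 385) in highest-score and 249 to 372 (median 332) in lowest-score tumours. The 5 probe sets of Cdc20 disagreed: of the other 4, 1 passed with a change of 0.57 (adjusted p = 0.00248), and 3 did not, with changes of -0.14 to 0.32. A p that misses the threshold does not show that these levels were alike.

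**Figure D2:**
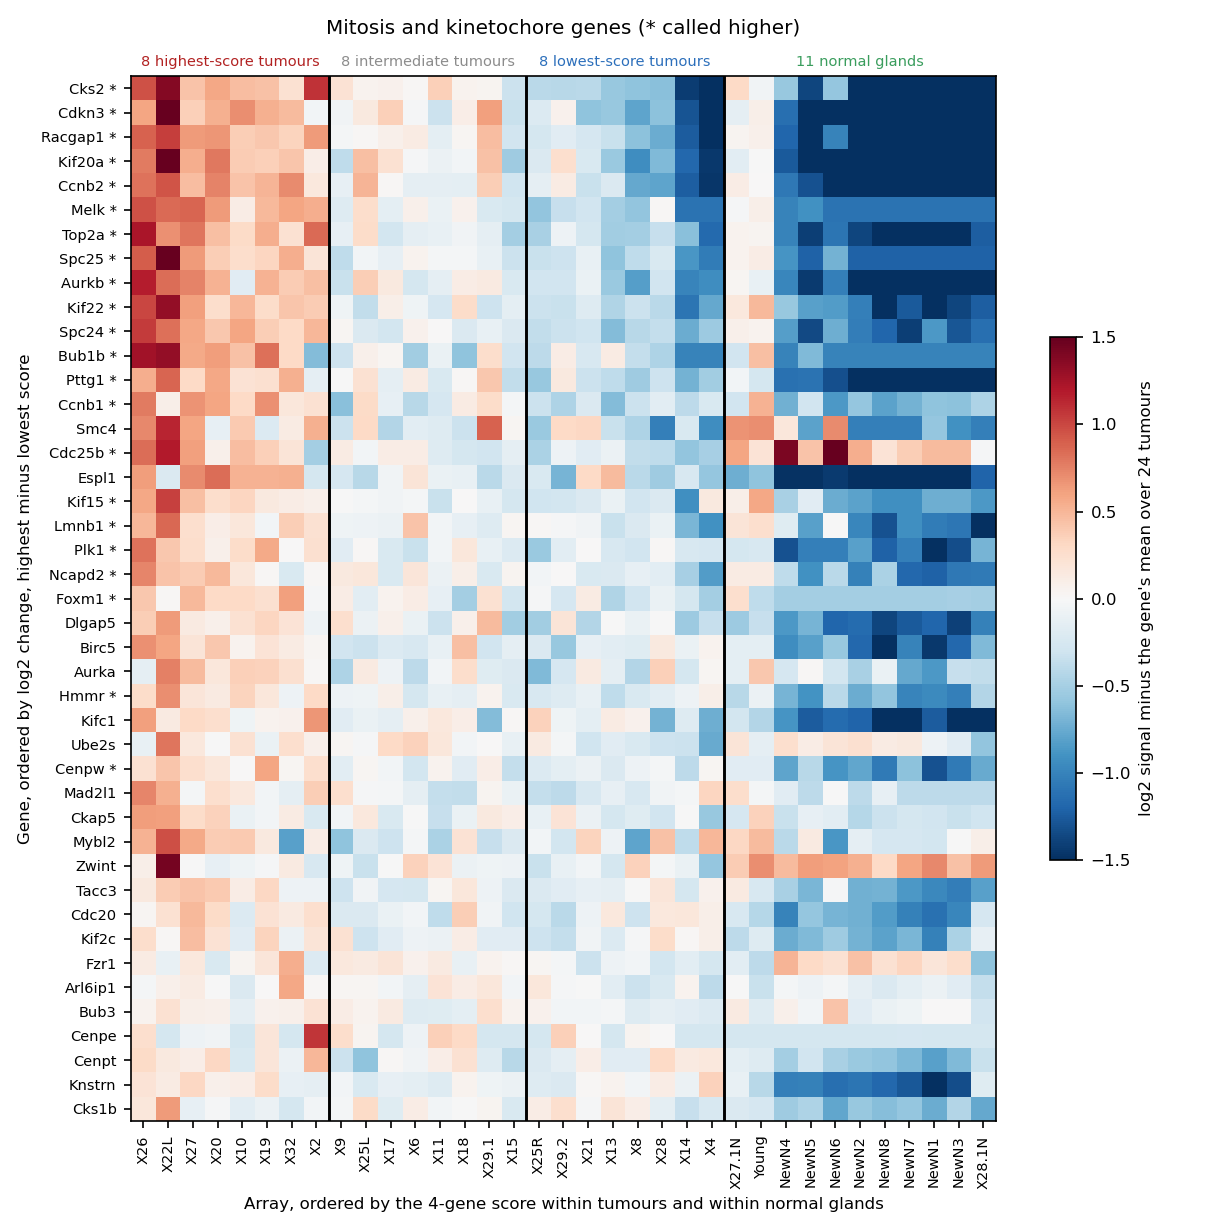
Log2 floored signal of the 43 measured mitosis and kinetochore genes on each of the 35 arrays, minus the gene's mean over the 24 tumours (red above, blue below), with genes in rows and arrays in columns ordered by the 4-gene score. Stars mark the 22 genes called higher, and the list's mean is highest in X22L (8.15) and X26 (8.02) and lowest in X4 (6.96) among the tumours.

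Promoters of genes of G2 phase and mitosis are known to carry the cell cycle genes homology region (CHR, TTTGAA or TTTAAA) and CCAAT boxes, and those of replication genes E2F sites. The letters of these motifs were searched on both strands in the window from 250 bases before to 50 bases after each gene's start, from the RefSeq promoter table of assembly GRCr8. E2F was searched as TTTCCCGC, TTTCGCGC, TTTGCCGC or TTTGGCGC. No motif contains another, though neighbours can share edge bases. Promoters are shown for Cdk1, for the largest risers of the mitosis list that the table holds, and for the 2 replication genes that rose, 5' to 3' on the gene's strand, with all motif matches in capitals.

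Cdk1, chr20:19265043-19265342, plus strand: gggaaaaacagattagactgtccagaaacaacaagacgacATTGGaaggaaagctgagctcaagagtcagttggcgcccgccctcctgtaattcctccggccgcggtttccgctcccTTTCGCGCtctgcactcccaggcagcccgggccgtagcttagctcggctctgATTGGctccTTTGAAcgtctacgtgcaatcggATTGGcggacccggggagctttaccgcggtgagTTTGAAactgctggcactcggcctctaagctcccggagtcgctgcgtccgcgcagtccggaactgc
Cks2, chr17:13727470-13727769, minus strand: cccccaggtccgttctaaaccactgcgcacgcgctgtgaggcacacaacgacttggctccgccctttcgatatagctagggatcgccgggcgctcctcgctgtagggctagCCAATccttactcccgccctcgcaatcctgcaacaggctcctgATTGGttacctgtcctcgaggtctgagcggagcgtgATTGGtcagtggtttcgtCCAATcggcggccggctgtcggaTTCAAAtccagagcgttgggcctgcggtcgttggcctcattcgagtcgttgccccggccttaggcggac
Cdkn3, chr15:22502136-22502435, plus strand: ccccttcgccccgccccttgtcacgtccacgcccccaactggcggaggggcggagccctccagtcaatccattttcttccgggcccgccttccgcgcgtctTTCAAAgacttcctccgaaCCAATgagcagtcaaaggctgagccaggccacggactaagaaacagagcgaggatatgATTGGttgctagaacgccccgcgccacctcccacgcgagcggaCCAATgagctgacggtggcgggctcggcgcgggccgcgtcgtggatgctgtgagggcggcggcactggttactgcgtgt
Kif20a, chr18:26504172-26504471, plus strand: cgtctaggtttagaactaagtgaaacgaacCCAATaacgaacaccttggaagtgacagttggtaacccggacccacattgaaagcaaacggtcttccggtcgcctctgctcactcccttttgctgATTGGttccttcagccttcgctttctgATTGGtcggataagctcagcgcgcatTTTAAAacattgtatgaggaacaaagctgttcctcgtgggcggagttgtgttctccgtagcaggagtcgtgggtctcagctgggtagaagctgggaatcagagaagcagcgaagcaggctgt
Ccnb2, chr8:79981609-79981908, minus strand: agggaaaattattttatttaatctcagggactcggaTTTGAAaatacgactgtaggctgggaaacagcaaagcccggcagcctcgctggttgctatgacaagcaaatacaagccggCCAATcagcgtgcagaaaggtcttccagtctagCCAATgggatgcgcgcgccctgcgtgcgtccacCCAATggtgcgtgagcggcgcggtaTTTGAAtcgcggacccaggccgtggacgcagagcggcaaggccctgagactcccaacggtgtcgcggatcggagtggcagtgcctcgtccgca
Melk, chr5:63335901-63336200, plus strand: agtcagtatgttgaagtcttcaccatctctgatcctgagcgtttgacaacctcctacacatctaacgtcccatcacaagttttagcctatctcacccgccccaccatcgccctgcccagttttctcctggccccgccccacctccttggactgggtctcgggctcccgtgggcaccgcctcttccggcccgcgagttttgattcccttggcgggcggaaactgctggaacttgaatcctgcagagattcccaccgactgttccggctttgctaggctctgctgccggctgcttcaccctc
Mcm5, chr19:13488563-13488862, plus strand: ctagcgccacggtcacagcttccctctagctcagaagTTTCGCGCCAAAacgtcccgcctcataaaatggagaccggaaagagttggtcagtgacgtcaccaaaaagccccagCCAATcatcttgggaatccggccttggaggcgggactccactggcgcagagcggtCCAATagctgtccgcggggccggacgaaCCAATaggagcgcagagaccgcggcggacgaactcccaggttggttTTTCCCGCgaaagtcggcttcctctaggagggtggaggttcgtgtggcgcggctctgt
Rfc4, chr11:91254023-91254322, plus strand: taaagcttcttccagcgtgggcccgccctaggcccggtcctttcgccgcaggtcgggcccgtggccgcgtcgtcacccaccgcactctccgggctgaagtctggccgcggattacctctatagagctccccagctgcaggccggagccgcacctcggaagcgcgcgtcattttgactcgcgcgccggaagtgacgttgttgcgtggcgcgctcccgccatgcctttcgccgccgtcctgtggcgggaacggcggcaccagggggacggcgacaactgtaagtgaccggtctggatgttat

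The window of Cdk1 holds 2 CHR matches, at 72 and 16 bases before the start, 3 CCAAT boxes and 1 E2F match. Cks2, Cdkn3, Kif20a and Ccnb2 each hold a CHR match and at least 3 CCAAT boxes, and no E2F match. Melk and Rfc4 hold none of these letters in the window, and Mcm5 holds 3 E2F matches and 3 CCAAT boxes but no CHR. Over the lists, CHR letters stood in 30 of 38 promoters of mitosis genes (78.9%), 4 of 29 of DNA replication genes (13.8%) and 1643 of 8627 of all genes tested. Over all 27456 promoters of the table the share was 27.9%. CHR and CCAAT stood together in 60.5% of mitosis promoters, 6.9% of replication promoters, 7.75% of those of all genes tested and 11.1% of the table. CCAAT alone separated the lists less, at 73.7%, 65.5%, 37.6% and 37.7% in the same order. E2F letters were in 0 of 38 mitosis promoters, 14 of 29 replication promoters (48.3%), 3.52% of promoters of genes tested and 2.25% of the table. Among the genes called higher 27 of 52 held a CHR (51.9%), and among those called lower 5 of 52 (9.62%). These are matches of letters, and binding was not measured.

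Of 33 measured DNA replication genes 2 rose (6.06%, beside 0.596% of all genes tested) and 0 fell, and the median change was 0.21. This list was not tested against the mitosis list, which shares its class with the score. The risers were Rfc4, a subunit of the clamp loader, and Mcm5, a subunit of the replicative helicase. Rfc4 lay at 167 to 288 (median 196) in highest-score and 86.6 to 194 (median 137) in lowest-score tumours (0.65 ± 0.15; adjusted p = 0.0295, or 0.0567 without X22L). Mcm5 was at 187 to 263 (median 241) in highest-score and 128 to 256 (median 163) in lowest-score tumours (0.49 ± 0.12; adjusted p = 0.0394, or 0.0632 without X22L). Mcm5 was called in 4 of the 16 fits that left out a tumour. Pcna, the sliding clamp of the polymerases and the brightest gene of the list, changed by 0.46 ± 0.14 (adjusted p = 0.104), with 1124 to 1790 (median 1257) in highest-score and 664 to 1318 (median 978) in lowest-score tumours. Mcm2, another helicase subunit, changed by 0.56 ± 0.26 (adjusted p = 0.412), and 1 lowest-score tumour, X29.2, lay below the floor while the others had 201 to 301. Without X22L no replication gene passed, and the median was 0.20.

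Of 19 nucleotide synthesis genes 2 rose (10.5%, beside 0.596% of all genes tested) and 0 fell, with a median of 0.16. Without X22L 1 rose. Tk1, the S phase thymidine kinase, did not overlap, at 344 to 657 (median 427) in highest-score and 209 to 343 (median 280) in lowest-score tumours (0.70 ± 0.13; adjusted p = 0.00773). Rrm1, the large subunit of ribonucleotide reductase, was at 109 to 255 (median 190) in highest-score and 45.6 to 155 (median 115) in lowest-score tumours (0.78 ± 0.19; adjusted p = 0.0394, or 0.0764 without X22L). Tyms, thymidylate synthase, was near the floor in both groups and changed by 0.14 ± 0.13 (adjusted p = 0.749). Among 21 histones and chromatin proteins of dividing cells 3 rose (14.3%, beside 0.596% of all genes tested), and 2 without X22L. The 3 were the histone variants H2ax (0.74 ± 0.16; adjusted p = 0.0186) and H2az1 (0.50 ± 0.12; adjusted p = 0.0376, or 0.0698 without X22L) and the nuclear transport GTPase Ran (0.49 ± 0.12; adjusted p = 0.0391). Pclaf, a partner of Pcna that is in neither list, rose by 1.12 ± 0.19, with 293 to 627 (median 423) in highest-score and 106 to 279 (median 221) in lowest-score tumours (adjusted p = 0.00209).

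No gene of the 26 G1 cyclins, cyclin-dependent kinase inhibitors and their partners passed in either direction, and their median was 0.00. At an unadjusted p under 0.05 there were 6, and without X22L 1 rose. Ccnd1, cyclin D1, was bright in both groups, at 685 to 3463 (median 2237) in highest-score and 1362 to 3524 (median 2674) in lowest-score tumours (-0.24 ± 0.23; adjusted p = 0.773). Its lowest value was that of X22L, and the other highest-score tumours had 2064 or more. Ccne1, cyclin E1, changed by 0.16 ± 0.12 (adjusted p = 0.705). Cdkn1a, the p21 inhibitor, had 209 to 462 (median 353) in highest-score and 175 to 310 (median 234) in lowest-score tumours and was just outside the threshold (0.53 ± 0.14; adjusted p = 0.0571). The other probe set of Cdkn1a, which was dimmer, changed by -0.06 (adjusted p = 0.982). Cdkn1b, the p27 inhibitor, changed by -0.12 ± 0.14 (adjusted p = 0.841).

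The lists for protein synthesis, turnover and splicing held 2 calls. Of 32 ribosomal protein genes none passed, with a median of -0.07 and 5 above 0. At an unadjusted p under 0.05 there were 6. Rpl7a, the brightest, lay at 6480 to 7059 in highest-score and 6610 to 8312 in lowest-score tumours. Of 24 proteasome genes none passed, although 23 were above 0, with a median of 0.07, and 1 had an unadjusted p under 0.05. Eif5a, a translation factor needed for stalled ribosomes, was the 1 riser among 26 genes of ribosome biogenesis and translation (3.85%, beside 0.596% of all genes tested). It lay at 3141 to 3710 (median 3242) in highest-score tumours, all above the 1908 to 2951 (median 2749) of lowest-score tumours, a change of 0.33 ± 0.08 (adjusted p = 0.0299). Snrpa, a protein of the U1 splicing particle, was the 1 riser among 21 splicing factors (4.76%), with an adjusted p of 0.0794 without X22L.

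The largest rises included genes outside the lists for dividing cells. Slpi, a secreted inhibitor of leukocyte proteases, rose the most of the called genes, at 204 to 1223 (median 385) in highest-score tumours and 38.9 to 202 (median 87.2) in lowest-score tumours. The groups did not overlap, and the change was 2.16 ± 0.36 (adjusted p = 0.00213). Hmox1, heme oxygenase 1, which is induced by heme and oxidative stress, was at 442 to 1011 in 7 highest-score tumours and at 158 in X2, against 130 to 301 in lowest-score tumours (1.43 ± 0.30; adjusted p = 0.0171). Psat1, an enzyme of serine synthesis, was at 74.9 to 287 (median 193) in highest-score and 13.9 to 119 (median 58.9) in lowest-score tumours (1.35 ± 0.29; adjusted p = 0.0171). Gpnmb, a membrane glycoprotein abundant in macrophages and in some tumour cells, was at 290 to 1004 (median 612) in highest-score and 125 to 391 (median 249) in lowest-score tumours (1.29 ± 0.32; adjusted p = 0.0435). X22L had the highest of these signals, the adjusted p of Gpnmb was 0.0797 without it, and Gpnmb was called in 2 of the 16 fits that left out a tumour. Intermediate tumours reached 1470 for Gpnmb, above every highest-score tumour. Tubb6, a beta tubulin, did not overlap, at 221 to 610 (median 301) in highest-score and 20.7 to 215 (median 148) in lowest-score tumours (1.29 ± 0.24; adjusted p = 0.00773), and the highest was X22L. Pimreg, a cell cycle gene in none of the lists and a regulator of the metaphase to anaphase transition, was dim but also apart, at 75.8 to 220 (median 142) in highest-score and 33.6 to 72.6 (median 51.2) in lowest-score tumours (1.30 ± 0.18; adjusted p = 0.000271).

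**Figure D3:**
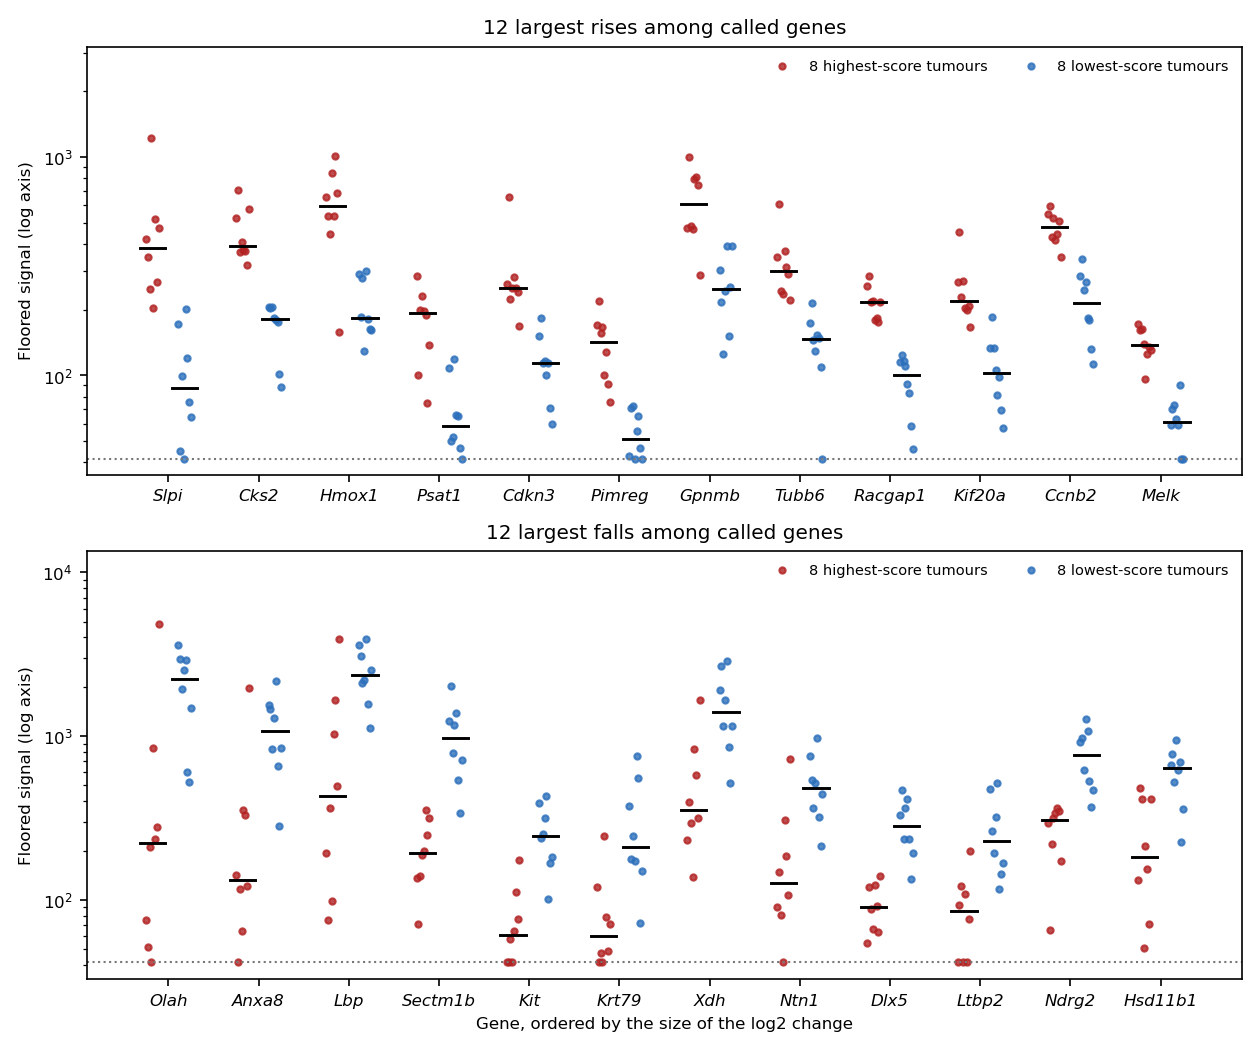
Floored signal (log axis) of the 12 genes with the largest rises (top) and the 12 with the largest falls (bottom) in each of the 8 highest-score (red) and 8 lowest-score (blue) tumours. Bars are group medians, and the dotted line is the floor of 41.6. For Olah, Anxa8 and Lbp the highest-score tumour X2 lies above most or all lowest-score tumours. Within the lowest-score range also lie X10 for Olah, X10 and X19 for Anxa8, and X19 for Lbp.

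Of 18 measured genes of the hypoxia response 2 rose (11.1%, beside 0.596% of all genes tested), Hmox1 and Pgk1, and 0 fell. The change was above 0 for 17 of 18, with a median of 0.50, and without X22L 3 rose with a median of 0.60. Over all alternatives and left-out tumours the count ran from 0 to 6 higher and the median from 0.28 to 0.63. The mean log2 level over the list was 8.04 to 9.46 (median 8.99) in highest-score and 7.85 to 8.63 (median 8.42) in lowest-score tumours, with X2 the lowest of the highest-score ones. Pgk1, a glycolytic kinase that is a target of the hypoxia-inducible factor, was at 1379 to 4242 (median 2926) in highest-score and 893 to 2435 (median 1578) in lowest-score tumours (0.83 ± 0.21; adjusted p = 0.049). Its lowest value among highest-score tumours was in X2 and its highest in X20. It was called in 4 of the 16 fits that left out a tumour. Pgk1 was also the 1 riser among 21 glycolysis genes (4.76%, beside 0.596% of all genes tested), whose median was 0.32. Without X22L 2 glycolysis genes rose. Slc2a1, the glucose transporter GLUT1, changed by 0.89 ± 0.29 (adjusted p = 0.163), and Eno1, enolase 1 and the brightest of the list, by 0.32 ± 0.18 (adjusted p = 0.563). Higd1a, a mitochondrial protein induced by hypoxia that is in neither list, rose by 1.08 ± 0.19, at 457 to 1178 (median 853) in highest-score and 225 to 461 (median 422) in lowest-score tumours (adjusted p = 0.00291). Oxidative phosphorylation genes had a median of 0.15 with none of 32 called and 5 at an unadjusted p under 0.05. Outside that list, the respiratory complex III genes Uqcr10 and Uqcc2 rose. Uqcr10 changed by 0.38 (adjusted p = 0.0305, or 0.0589 without X22L) and Uqcc2 by 0.57 (adjusted p = 0.0327, or 0.061 without X22L). They were called in 9 and 8 of the 16 fits that left out a tumour.

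Of 16 cholesterol synthesis genes 2 rose (12.5%, beside 0.596% of all genes tested). Sqle, squalene epoxidase, was at 80.9 to 345 (median 173) in highest-score and 59.9 to 159 (median 82.5) in lowest-score tumours (1.004 ± 0.23; adjusted p = 0.031). Msmo1, the methylsterol oxidase, was at 361 to 735 (median 515) in highest-score and 216 to 490 (median 293) in lowest-score tumours (0.69 ± 0.16; adjusted p = 0.0299, or 0.0569 without X22L). Srebf2, the transcription factor of the pathway, changed by 0.37 ± 0.16 (adjusted p = 0.344). The median of the list was 0.13, and without X22L 1 gene rose.

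The milk fat genes Olah and Xdh were among the largest falls. Among 18 milk and secretory genes 2 fell (11.1%, beside 0.682% of all genes tested), Olah and Xdh, none rose, and the median was -0.44. Olah, the thioesterase that releases medium-chain fatty acids for milk fat, had the largest fall of the called genes, -2.86 ± 0.72 (adjusted p = 0.0474, or 0.088 without X22L). Olah was called in 4 of the 16 fits that left out a tumour. Its signals in highest-score tumours were at most 843 in 7 tumours and 4808 in X2, the highest of all 16, against 524 to 3595 (median 2222) in lowest-score tumours. Xdh, xanthine oxidoreductase, which helps to enclose milk fat droplets, was at 139 to 1669 (median 354) in highest-score and 516 to 2854 (median 1403) in lowest-score tumours (-1.73 ± 0.39; adjusted p = 0.0295). Csn3, kappa-casein and the brightest milk gene, ran from 260 in X20 to 11851 in X2 among highest-score tumours (median 2797) and from 4533 to 9271 (median 7704) in lowest-score tumours, and did not pass (-1.56 ± 0.52; adjusted p = 0.17). Xdh was called in 9 of the 16 fits that left out a tumour. The change was above 0 for 3 of the 18 genes and below 0 for 15. Among milk protein genes of the fixed panel, Csn2 was at 1907 in X10 and 686 in X2. It was at 45.5 or less in the other highest-score tumours and at 36.1 to 465 in lowest-score tumours. Wap was at 377 in X10 and 79.7 in X2, and below the floor in every other compared tumour. In bulk tissue, fewer cells of a type and less RNA per cell cannot be told apart. Without X22L 1 milk gene fell and the median was -0.35.

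Other large falls were uneven within the highest-score tumours. Lbp, the lipopolysaccharide binding protein, spanned 75.7 in X22L to 3903 in X2 (median 432) in highest-score tumours and 1120 to 3918 (median 2359) in lowest-score tumours (-2.37 ± 0.57; adjusted p = 0.0376, or 0.0648 without X22L). Anxa8, an annexin, spanned 28.4 to 1956 (median 132) in highest-score and 282 to 2162 (median 1072) in lowest-score tumours (-2.42 ± 0.56; adjusted p = 0.0299, or 0.0546 without X22L), again with X22L lowest and X2 highest. Sectm1b fell more evenly, at 71.4 to 353 (median 193) in highest-score and 340 to 2012 (median 975) in lowest-score tumours (-2.26 ± 0.32; adjusted p = 0.000374). Krt79, a keratin, was at 5.64 to 246 (median 59.8) in highest-score and 72.2 to 757 (median 211) in lowest-score tumours (-1.78 ± 0.40; adjusted p = 0.026). Ndrg2, a member of the N-myc downstream-regulated family, did not overlap, at 65.2 to 365 (median 305) in highest-score and 370 to 1278 (median 771) in lowest-score tumours (-1.60 ± 0.30; adjusted p = 0.00783). Hsd11b1, which regenerates active glucocorticoid, was at 50.9 to 484 (median 183) in highest-score and 226 to 944 (median 642) in lowest-score tumours (-1.59 ± 0.40; adjusted p = 0.049). Hsd11b1 was called in 4 of the 16 fits that left out a tumour.

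Among 31 growth factors and their receptors 3 fell (9.68%, beside 0.682% of all genes tested) and none rose. The median was -0.04, and without X22L 2 fell. Kit, the receptor of stem cell factor, was at 26.5 to 175 (median 61.3) in highest-score tumours, 3 of them below the floor, and at 102 to 429 (median 245) in lowest-score tumours (-1.82 ± 0.30; adjusted p = 0.00174). X2 and X19 were the highest-score tumours within the range of the lowest-score ones for Kit. Met, the receptor of hepatocyte growth factor, was at 23.4 to 237 (median 72.7) in highest-score and 85.7 to 330 (median 169) in lowest-score tumours (-1.23 ± 0.29; adjusted p = 0.033, or 0.0619 without X22L). Igfbp5, an insulin-like growth factor binding protein of the mammary epithelium, was at 981 to 4009 (median 1642) in highest-score and 2472 to 4500 (median 3757) in lowest-score tumours (-1.002 ± 0.20; adjusted p = 0.0126). Spry2, an inhibitor of signals from such receptors, fell without overlap, at 91.4 to 283 (median 202) in highest-score and 303 to 632 (median 408) in lowest-score tumours (-1.25 ± 0.20; adjusted p = 0.00136).

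Genes outside that list that fell included a homeobox factor and secreted ligands. Dlx5, a homeobox factor, was at 54.2 to 140 (median 89.8) in highest-score and 134 to 470 (median 283) in lowest-score tumours (-1.64 ± 0.25; adjusted p = 0.000725), with 1 lowest-score tumour, X14, below the top of the other group. Ntn1, the guidance factor netrin 1, was at 29.3 to 729 (median 127) in highest-score and 212 to 972 (median 481) in lowest-score tumours (-1.68 ± 0.40; adjusted p = 0.0352, or 0.0546 without X22L). The other 2 probe sets of Ntn1, both dimmer, changed by -0.03 and 0.00 and did not pass. Ltbp2, a matrix protein related to the binding proteins of latent TGF-beta, was below the floor in 3 highest-score tumours (-1.63 ± 0.36; adjusted p = 0.0225). Wnt5b, a Wnt ligand, was at 115 to 334 (median 151) in highest-score and 166 to 512 (median 384) in lowest-score tumours (-1.09 ± 0.22; adjusted p = 0.0134). Bmp4 fell by 1.01 on the log2 scale, with an SE of 0.24 (adjusted p = 0.0371, or 0.0705 without X22L). Stat3, a transcription factor activated in mammary involution, was at 532 to 1358 (median 1136) in highest-score and 1112 to 2290 (median 1632) in lowest-score tumours (-0.68 ± 0.17; adjusted p = 0.0384, or 0.0546 without X22L).

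Hormone receptors and their targets had a median of -0.32, with 1 of 20 lower (5%, beside 0.682% of all genes tested) and none higher. The 1 was Thrb, the beta thyroid hormone receptor, at 49.0 to 173 (median 97.6) in highest-score and 122 to 289 (median 183) in lowest-score tumours (-0.96 ± 0.22; adjusted p = 0.0295, or 0.0524 without X22L). The other probe set of Thrb changed by -0.09 (adjusted p = 0.896). Pgr, the progesterone receptor, was at 33.8 to 172 (median 109) in highest-score and 117 to 311 (median 192) in lowest-score tumours (-0.93 ± 0.28; adjusted p = 0.118). Esr1, the alpha oestrogen receptor, was dim in both groups and changed by -0.51 ± 0.24 (adjusted p = 0.419). Prlr, the prolactin receptor, was at 1445 to 4159 in 7 highest-score tumours and at 82.8 in X22L, against 1443 to 3335 in lowest-score tumours (-0.38 ± 0.53; adjusted p = 0.885). Without X22L no member passed and the median was -0.16.

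**Figure D4:**
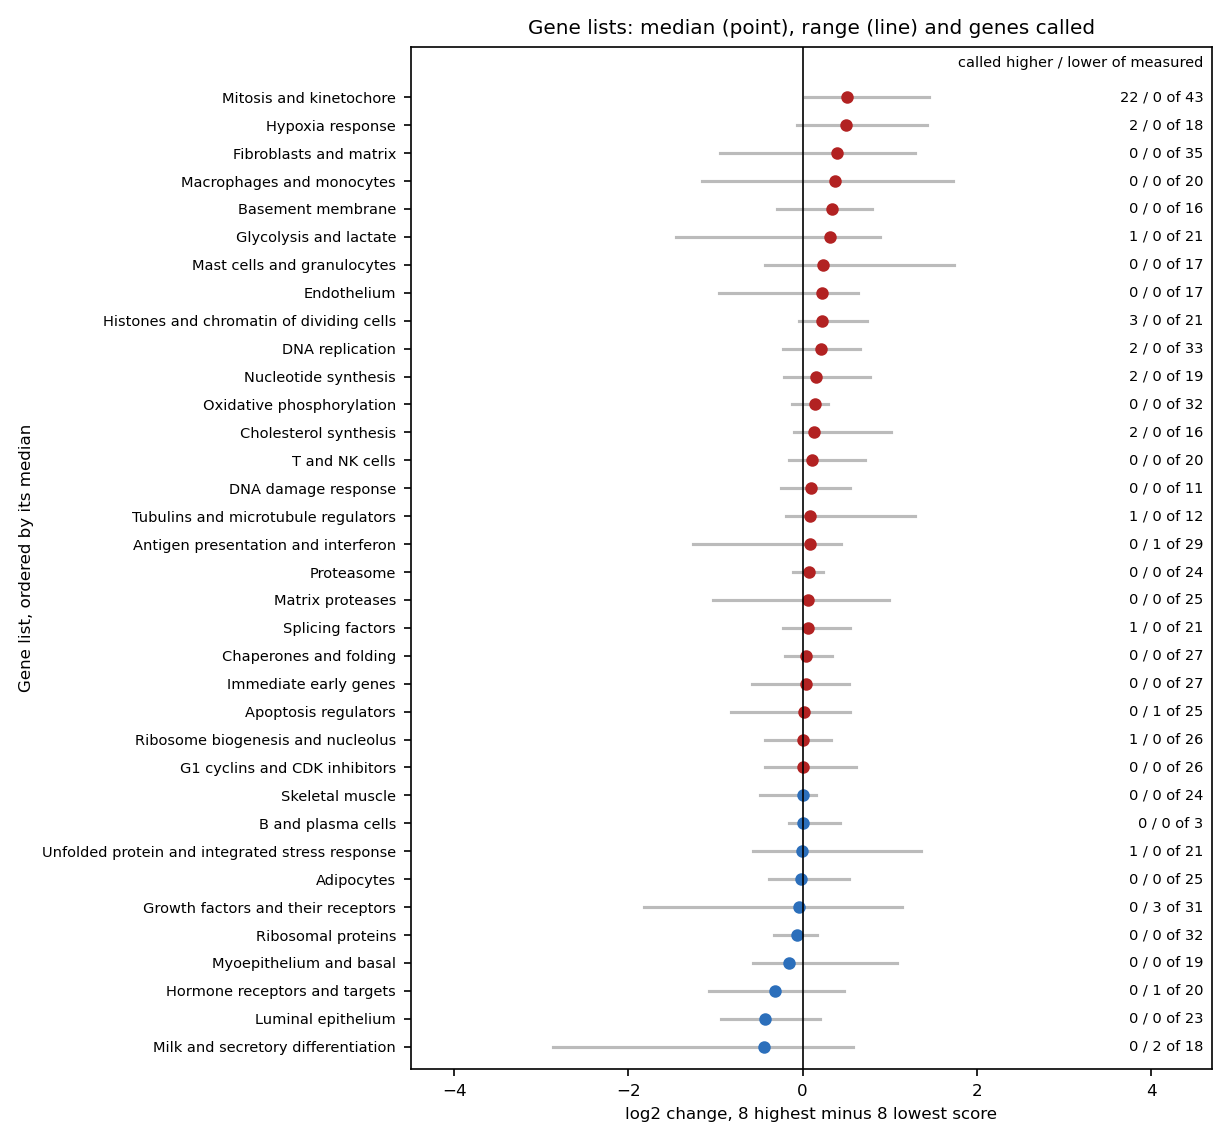
Median (point) and range (line) of the log2 change, highest-score minus lowest-score tumours, for each of 35 gene lists, with the genes called higher and lower of those measured at the right. Mitosis and kinetochore, with 22 of 43 called higher, is the list with the most calls, and its line lies wholly above 0.

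Lists that mark cell types held few calls. Of 23 luminal epithelium genes none passed, with a median of -0.43 that was -0.03 without X22L. At an unadjusted p under 0.05 there were 4, beside 1233 of the 10407 genes tested. Of 19 myoepithelial and basal genes none passed, with a median of -0.15 (0.08 without X22L) and 1 at an unadjusted p under 0.05. The basal keratin Krt5 was at 1072 to 3548 in 7 highest-score tumours and 141 in X22L, against 829 to 3049 in lowest-score tumours. Of 35 fibroblast and matrix genes none passed, with a median of 0.39 (0.16 without X22L) and 4 at an unadjusted p under 0.05. Their mean log2 level was 7.01 to 10.98 (median 8.18) in highest-score and 7.77 to 9.29 (median 8.37) in lowest-score tumours. Col1a1, the collagen of fibroblasts, ran within the highest-score tumours from 69.2 in X2 to 8788 in X10 (median 366), and was at 131 to 2600 (median 499) in lowest-score tumours. Vim, vimentin, was at 543 to 3547 (median 1409) in highest-score and 546 to 1472 (median 785) in lowest-score tumours (0.94 ± 0.33; adjusted p = 0.208).

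Markers of cells other than epithelium gave no call either. Of 20 macrophage genes none passed, with a median of 0.37 (0.16 without X22L) and 3 at an unadjusted p under 0.05. Their mean log2 level was 8.04 to 9.92 (median 8.65) in highest-score and 8.02 to 8.86 (median 8.43) in lowest-score tumours, and its part in the other results was not tested. Mast cell and granulocyte genes had a median of 0.24, with none of 17 called, 7 at an unadjusted p under 0.05 and 1 called without X22L. The mast cell protease Cpa3 was at 90.9 to 825 (median 307) in highest-score and 48.5 to 381 (median 81.3) in lowest-score tumours (1.61 ± 0.44; adjusted p = 0.0778). The B cell gene Cd79b and the skeletal muscle gene Acta1 lay below the floor in 16 of 16 tumours. Fabp4, of adipocytes, was below it in 4 highest-score and 5 lowest-score tumours. With the luminal epithelium mean as a covariate 65 genes were higher and 51 lower, of which 42 and 47 were called without it. Since X22L lies far below all other tumours in that mean, this covariate weighs mostly on X22L. With the fibroblast and matrix mean 68 were higher and 72 lower, of which 58 and 66 were called without it.

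The 8 intermediate tumours lay differently for the 2 sets of genes. They are in neither compared group, but they entered the fit and its estimate of spread, on which the calls rest. For all 71 genes that fell, the mean log2 level of the intermediate tumours was nearer to the lowest-score than to the highest-score tumours. The median position was 0.06 of the way from the lowest-score to the highest-score mean, and for 26 of the 71 the intermediate mean was at or beyond the lowest-score mean. For the 62 genes that rose the median position was 0.41, nearer to the lowest-score tumours for 35 and nearer to the highest-score tumours for 27. For the 22 mitosis genes it was 0.35. Kit had an intermediate median of 247, beside 61.3 in highest-score and 245 in lowest-score tumours. Cks2 had an intermediate median of 282, between 392 in highest-score and 182 in lowest-score tumours. These genes were chosen by the contrast of the outer groups, so the positions are a description with no test.

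Within the 8 intermediate tumours alone, the slope on the score was tested with limma for all 10407 genes. 0 genes passed, 0% of those tested, and 332 had an unadjusted p under 0.05. The score ran only from 8.48 to 8.80 in these tumours, so few calls were possible. The counts of signs that follow are a description with no test. The slope was positive for 44 of the 62 higher genes (71.0%), beside 5007 of all genes (48.1%). It was negative for 30 of the 71 lower genes (42.3%), beside 51.9% of all genes. The shares over all genes include flat genes whose slope was only a rounding remainder, counted by its sign.

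**Figure D5:**
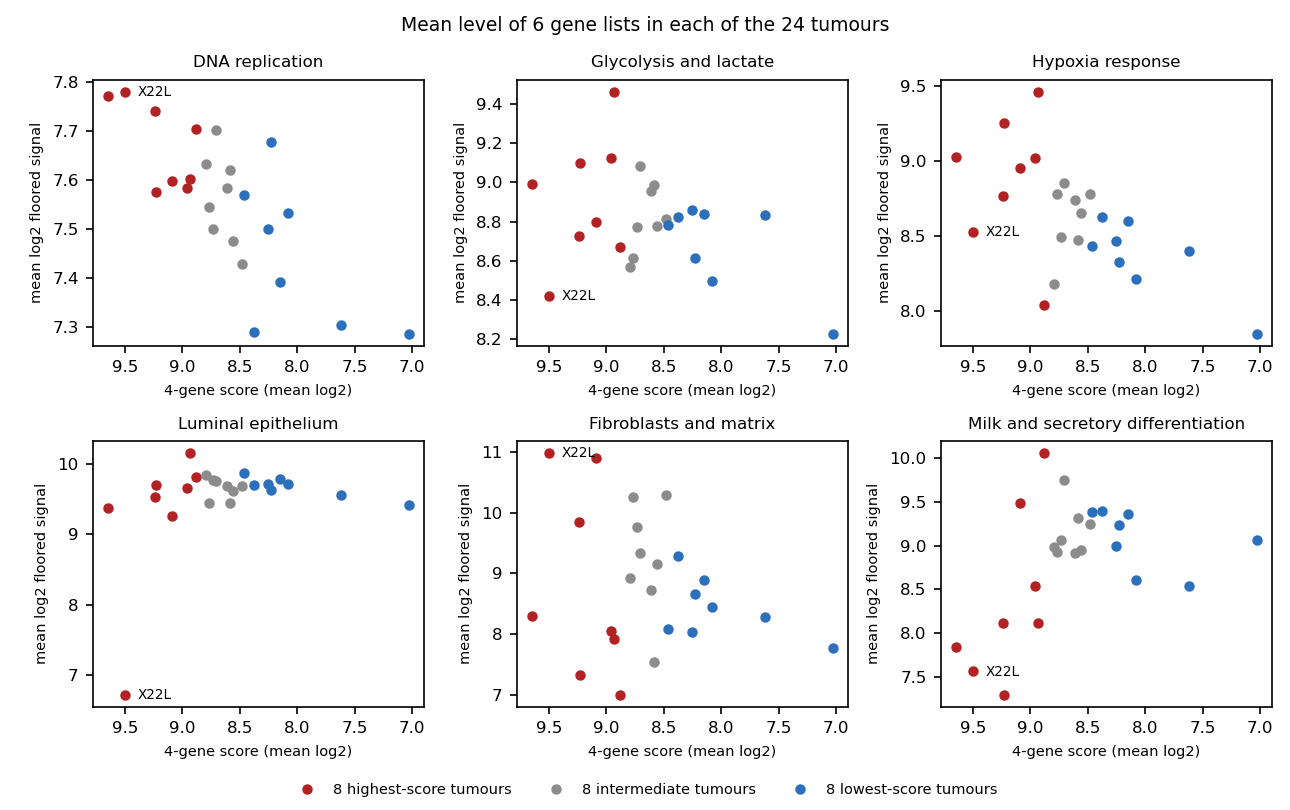
Mean log2 floored signal of 6 gene lists against the 4-gene score in the 24 tumours (red highest-score, grey intermediate, blue lowest-score; the score axis runs from high to low). X22L stands apart at 6.73 for luminal epithelium, and X2 has the highest mean for milk and secretory differentiation among all 24 tumours.

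Of the 133 called genes, 23 were also read by other probe sets, 30 in number. The change had the same sign in 27 of these, 10 were called, and 0 were called in the opposite direction.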

How the data were processed

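The deposited values are signal intensity per probe set from 35 RAE230A arrays, 1 table of the authors over all samples. For the software, scaling and dates behind it: not given in the sources used here. Array medians ran from 158 to 176. Values were floored at 41.6, the 10th percentile of all values, and put on the log2 scale, with no further normalization. Each of 10411 genes was represented by its probe set of highest mean among the 12783 with 1 gene symbol, and 57 control probe sets were left out.

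The 24 tumours were ranked by the mean of Cdk1, Ube2c, Mki67 and Stmn1 and entered as 3 groups of 8 into 1 limma fit (lmFit and eBayes with trend and robust settings, limma 3.58.1, R 4.3.3). P-values were Benjamini-Hochberg adjusted over 15862 probe sets, leaving out those of the 4 score genes, and genes were called at 0.05. The script was tested on simulated data. The number of arrays limits the precision. Array measures were compared with exact permutation tests (Python 3.11.15), and figures drawn with matplotlib 3.10.9. Promoters are those of RefSeq, assembly GRCr8.

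The members and gene lists were chosen with earlier results of these data known. Named genes are the 4 score genes, the 12 called genes with the largest rise and the 12 with the largest fall, up to 3 called members of largest change and the brightest member of each list, and a fixed panel. Any other gene named was chosen after its values were seen. Alternatives covered the scaling, the floor, the filter, the fit, the size of the groups, the genes of the score, covariates, and each of the 16 tumours left out in turn.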

Additional observations from a re-analysis of the deposited data

Results flagged for a closer look

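The gap from the highest or lowest tumour to the next, divided by the range of the group, was examined in 202 groups of 8 tumours. In 28 it was above the 95% limit of Dixon's test, which chance passes in about 1 of 20 groups. A group with all values at the floor, as for Wap in lowest-score tumours, could not be tested but is counted in the 202. The rate of 1 of 20 does not hold for groups mostly at the floor, such as Wap in highest-score tumours. The share of the range is given for each, and values are signals after the floor. X22L was the outlying tumour in 12 of the 28, X4 in 5, X10, X2 and X32 in 3 each, and X13 and X29.2 in 1 each. Since X22L, X4 or X2 each recur over many genes, these are not separate observations.

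Among highest-score tumours X22L was lowest for the epithelial keratins Krt18 (0.823 of the range, 41.6 beside 1470), Krt8 (0.815, 75.7 beside 2026), Krt5 (0.629, 141 beside 1072) and Krt14 (0.556, 120 beside 403). It was also lowest for the protease inhibitor Spint2 (0.76, 252 beside 2172), the prolactin receptor Prlr (0.73, 82.8 beside 1445), cyclin D1 Ccnd1 (0.681, 685 beside 2064), the lipocalin Lcn2 (0.632, 217 beside 2528), Ndrg2 (0.563, 65.2 beside 172) and the tubulin Tubb4b (0.562, 1839 beside 2318). It was highest for Ran (0.72, 3707 beside 2125) and Cdkn3 (0.624, 656 beside 281). X22L had both low keratins and high values of genes of dividing cells.

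X2, the last of the highest-score tumours, was lowest among them for Hmox1 (0.554, 158 beside 442), the basement membrane collagen Col4a1 (0.55, 932 beside 1921) and the splicing protein Snrpe (0.527, 935 beside 1217). X32 was lowest for Ccne1 (0.616, 182 beside 264) and Mcm5 (0.588, 187 beside 229) and highest for Arl6ip1 (0.566, 984 beside 718). X10 was highest for the adipocyte gene Fabp4 (0.854, 212 beside 52.7) and the milk protein gene Wap (0.705, 377 beside 79.7) and lowest for the proteasome activator Psme1 (0.549, 1495 beside 1689).

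Among lowest-score tumours X4 was lowest for Eif5a (0.633, 1908 beside 2514), the ATP synthase subunit Atp5f1b (0.611, 1999 beside 2704), Tubb6 (0.588, 41.6 beside 109), Rrm1 (0.576, 45.6 beside 92.3) and the chromatin protein Rbbp7 (0.557, 1161 beside 1643). X29.2 was lowest for Mcm2 (0.795, 41.6 beside 201), and X13 was highest for beta-casein, Csn2 (0.698, 465 beside 86.2).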

How the results depend on the processing

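All 62 higher and 71 lower genes kept their sign under the 21 alternatives and the 16 fits that left out a tumour, wherever they were tested (the filter that left out the dimmer probe sets tested 33 and 48 of them). The counts moved more. Of the 62 higher genes 31, and of the 71 lower genes 22, were called in all 16 fits that left out a tumour. In these fits the counts ran over 34 to 130 higher and 23 to 117 lower genes. Of the genes named above, Mcm5 was called in 4 of the 16. Lbp, Snrpa and Bmp4 were called in 5, Ntn1, Ran and Stat3 in 6, and Sqle in 7. The count of higher genes moved by over 1.5 times with the brighter probe sets alone (38), array weights (128), only the 16 tumours in the fit (32), 12 against 12 tumours (3) and a score without Mki67 (40). The count of lower genes moved by over 1.5 times with a floor at the 25th percentile (36), array weights (154), only the 16 tumours (18), 6 against 6 tumours (44), 12 against 12 tumours (0, with the 12 against 12 fit calling 3 higher), the score as a continuous covariate (6), a score without Cdk1 (23) or without Mki67 (26), without X25R and X29.2 (9), without X22L (45) and with the Actb 3' to 5' ratio as a covariate (32). Quantile normalization gave 75 higher and 103 lower genes. Higher genes were 46.6% of the calls; the share was 93.9% with the continuous score, 82.4% without X25R and X29.2, 73.3% without Cdk1 in the score, 64% in the fit of 16 tumours, 60.6% without Mki67, 59.5% with the Actb ratio, 58.1% with 6 against 6 and 100% with 12 against 12. The mitosis list had between 2 (12 against 12) and 24 higher genes, and 0 lower. With the shared title number as a random block 62 genes were higher and 73 lower. The cause of these shifts was not tested. Genes near the floor have compressed changes, and fewer probe sets enter some fits.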

Other observations

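In the 11 normal glands, the 4-gene score was 8.79 in X27.1N and 8.79 in the gland titled Young, against 8.48 to 8.80 in the intermediate tumours, and 6.26 to 7.58 in the other 9. The mean log2 level over the mitosis and kinetochore list was 7.44 in X27.1N and 7.46 in Young, and 6.43 to 6.89 in the other 9, beside 7.65 to 8.15 in highest-score and 6.96 to 7.34 in lowest-score tumours. Top2a had signals of 284 in both of these glands and 68.3 to 138 in the others. The B cell gene Cd79b was at 1013 in X27.1N and below the floor, at 28.6, in Young, and it was also high in NewN4 (809) and NewN6 (1111), whose scores were 7.58 and 7.14.

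Some genes that changed with the score in tumours had other levels in normal glands. Slpi, the largest riser, was at 204 to 1223 in highest-score tumours and 38.9 to 202 in lowest-score tumours, and at 191 to 1974 in normal glands, above the floor in all 11. Kit, which fell, was at 26.5 to 175 in highest-score and 102 to 429 in lowest-score tumours, and at 76.1 to 709 in normal glands. Fabp4, of adipocytes, was at 2291 to 6273 in the glands and at 212 or less in the 16 tumours, and levels across the 2 kinds of sample are given only as values.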
